A study of Mus musculus with 9 samples.

Results

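The integrated stress response and the unfolded protein response were followed through 10 genes in mouse CD8+ T cells with a knockout of Bdh1 and a knockdown of Oxct1, enzymes of ketone body oxidation. The 10 genes were chosen by name, for their place in these pathways, with earlier results of these data known. They come from the 55471 gene identifiers counted in every library. Atf4, Ddit3 and Xbp1 encode transcription factors, and Trib3 and Ppp1r15a feedback regulators. Asns, Psat1 and Phgdh encode enzymes of amino acid synthesis, and Chac1 and Sesn2 stress effectors. Of the 10, 9 had enough reads to be tested and Chac1 did not. Trib3 was the 1 member that passed the test after adjustment over all genes, falling to 58.5% of its control level. It passed in 12 of the 16 alternative analyses that do not block by replicate number. Atf4, which encodes the factor that drives Trib3, stood at 109% of control.

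In the integrated stress response, kinases that sense amino acid shortage, unfolded protein in the endoplasmic reticulum (ER), double-stranded RNA or haem shortage phosphorylate the initiation factor eIF2. General translation then falls while the Atf4 transcript is translated better, so that ATF4 protein is set largely by translation and can move with no change in its mRNA. ATF4, often with C/EBP partners, activates genes of amino acid synthesis and transport, and in strong stress also CHOP, the product of Ddit3. The unfolded protein response adds the ER sensors IRE1, which splices Xbp1 mRNA into its active form, and ATF6. Dividing effector T cells need large amounts of serine, glycine and asparagine, which the enzymes among the 10 genes make or feed.

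The cells were OT-I CD8+ T cells, whose transgenic receptor recognises an ovalbumin peptide, activated in culture with antibodies to CD3ε and CD28 and with IL-2. The control group had 4 libraries of Bdh1-WT cells transduced with shCtrl, a hairpin against firefly luciferase, and the DKO group had 5 libraries of Bdh1-KO cells transduced with shOxct1. Bdh1 and Oxct1 encode enzymes that turn ketone bodies into acetyl-CoA, so DKO cells combine a knockout with a hairpin knockdown. Transduced cells, sorted by the Ametrine reporter, were transferred into CD45.1 C57BL/6 mice, which keep their own T cells, and both groups of mice were infected with LmOVA, Listeria carrying ovalbumin. At day 7 after infection, spleen cells positive for CD45.2 and Ametrine were sorted for polyA RNA. The labels do not say whether each library came from its own mouse, and p-values then measure only the spread between these libraries. They give no ages, and whether Bdh1 was deleted in T cells alone is not given in the sources used here.

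Between 45205993 and 59853080 reads per library were counted in genes. Values are CPM, each gene's reads as a share of the library's total in the tested genes, scaled by the trimmed mean of M values (TMM). Oxct1 fell to 8.17% and Bdh1 to 34.9% of the control level, with every DKO library below every control, so the targeted genes matched the 9 labels. All 10 CD8 T cell markers of a list were above 1 CPM in at least 1 library. Control 1 stood apart: 16.7% of its reads were unmapped, against 10.3% to 12.3% elsewhere, and its values moved with transcript length. Its median deviation from the other control libraries was 0.36 (log2 of CPM + 1) for the shortest of 4 equal classes of genes by length and -0.55 for the longest, while the other 8 libraries lay between -0.20 and 0.27 in every class. Of the members, Sesn2 has the longest transcript, 3475 bases, and Ddit3 the shortest, 890 bases. Sesn2 in control 1 was 0.537 of the mean of the other controls and Ddit3 was 1.33 of it. The other 7 members with reads in those controls lay between 0.827 and 1.16 of it.

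**Figure D1:**
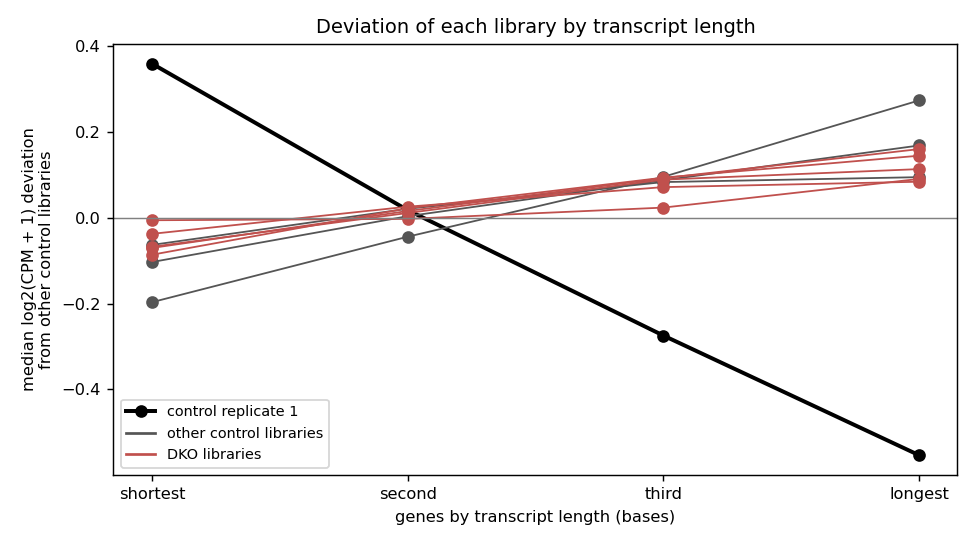
Deviation of each library by transcript length: the vertical axis is the median log2(CPM + 1) difference from the other control libraries, and the horizontal axis 4 equal classes of genes by transcript length. Control 1 (black) falls from 0.36 to -0.55 across the classes, while the other 8 libraries lie between -0.20 and 0.27.

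The members differed widely in level. On a per-length scale (CPM per kilobase of transcript), the control means ran from Atf4 at 61.8 ± 2.63 (SD, n = 4) and Xbp1 at 53.0 ± 2.36 down to Trib3 at 3.50 ± 0.510. Phgdh was at 24.0, Ddit3 at 21.2, Ppp1r15a at 13.3, Psat1 at 8.94, Sesn2 at 6.66 and Asns at 5.76 CPM per kilobase. Neighbours whose control libraries overlapped were Phgdh and Ddit3, Psat1 and Sesn2, Sesn2 and Asns, and Asns and Trib3. The DKO libraries gave the same order, with Atf4 at 67.5 ± 3.32 (SD, n = 5) and Trib3 at 2.05 ± 0.244 CPM per kilobase. There the overlapping neighbours were Ppp1r15a with Psat1 and Sesn2 with Asns. In DKO cells, unlike in the controls, the lowest Asns library (3.02 CPM per kilobase) lay above the highest Trib3 library (2.42). Relative spread also differed: the coefficient of variation over the DKO libraries was 4.92% for Atf4 and 37.6% for Asns.

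**Figure D2:**
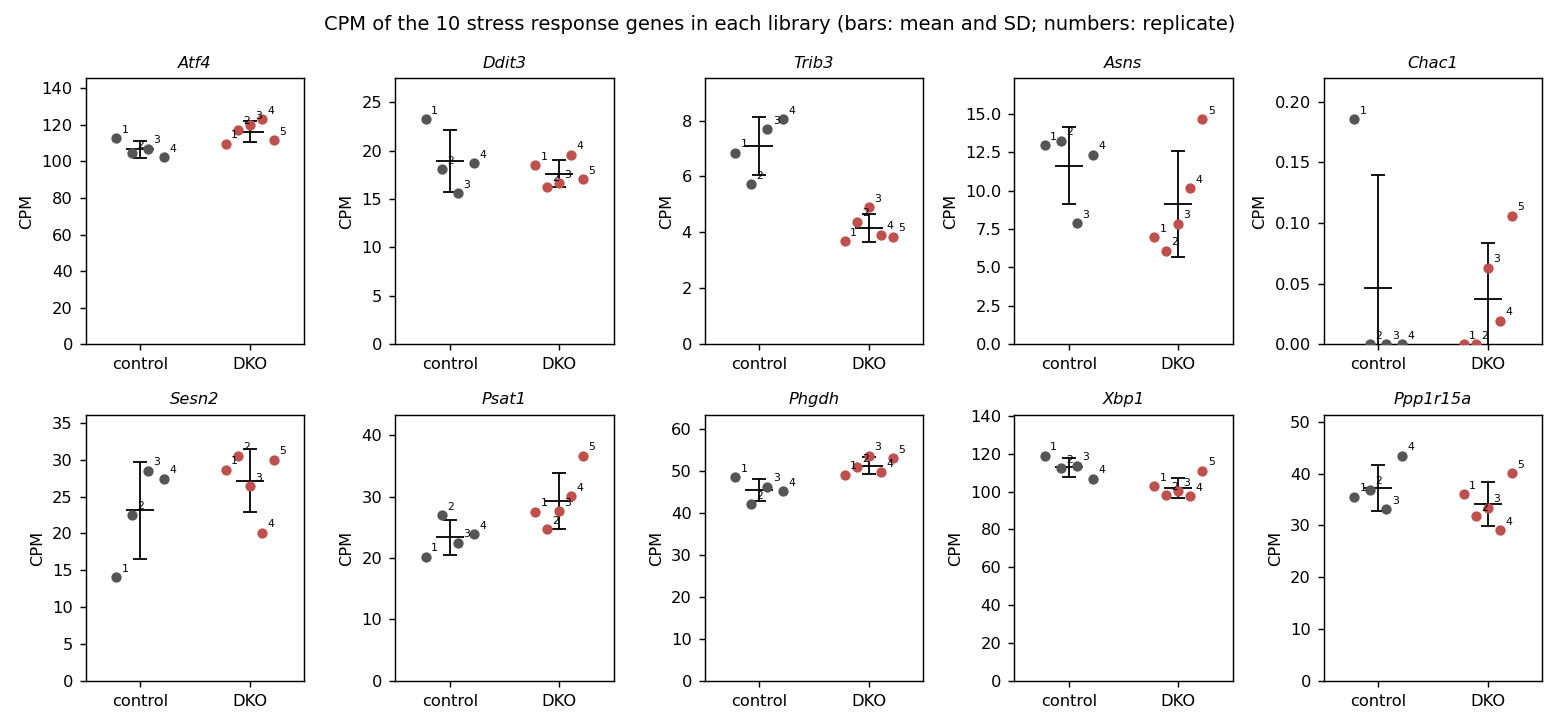
CPM of the 10 genes in each library, control (grey, n = 4) and DKO (red, n = 5), with replicate numbers, and with bars for the mean and SD; every vertical axis starts at 0. The groups separate for Trib3 and, narrowly, for Phgdh, and Chac1 is at 0 in 5 of 9 libraries.

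Among the 3 transcription factors, none passed the test. Atf4 (chr15:80255184-80257541, plus strand) had 113, 104, 107 and 102 CPM in control libraries 1 to 4 and 110, 117, 120, 123 and 111 CPM in DKO libraries 1 to 5. The groups overlapped because control 1, the highest control, lay above DKO 1 and DKO 5. Atf4 had a log2 fold change of 0.13 ± 0.07 (SE; 95% interval -0.03 to 0.28; edgeR adjusted p = 0.429), so that a rise above 0.28 on the log2 scale lies outside the interval.

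Xbp1 (chr11:5520659-5525893, plus strand), the factor activated by IRE1 splicing, had 119, 112, 114 and 107 CPM in the controls and 103, 98.1, 100, 97.6 and 111 CPM in the DKO libraries. DKO 5, the highest DKO library, lay within the control range and the other 4 DKO libraries lay below it. Its log2 fold change was -0.15 ± 0.07 (SE; interval -0.31 to 0.01; edgeR adjusted p = 0.358). Counts per gene do not separate spliced from unspliced Xbp1.

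Ddit3 (chr10:127290774-127296288, plus strand), which encodes the pro-apoptotic factor CHOP, had 23.3, 18.0, 15.6 and 18.7 CPM in the controls and 18.5, 16.3, 16.6, 19.6 and 17.1 CPM in the DKO libraries. All 5 DKO libraries lay inside the control range, which control 1 stretched upward. The log2 fold change of Ddit3 was -0.10 ± 0.12 (SE; interval -0.37 to 0.17; edgeR adjusted p = 0.737), and without control 1 it was 0.000297. The Ddit3 count is uncertain, because 10.9% of its exon bases are shared with Gm4189, Mars and a second identifier named Ddit3, and reads without strand in shared bases are left out. That second identifier had 0 reads in all libraries. For the main Ddit3 identifier, the sum of the strand columns was 1.51 of the unstranded count and gave a log2 fold change of -0.10.

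Trib3 (chr2:152337422-152344032, minus strand) encodes a pseudokinase of the Tribbles family that is induced by ATF4 and CHOP and restrains both ATF4 and AKT signalling. Trib3 had 6.85, 5.73, 7.70 and 8.06 CPM in control libraries 1 to 4 and 3.68, 4.39, 4.90, 3.92 and 3.85 CPM in DKO libraries 1 to 5. The groups did not overlap: the lowest control, control 2, was above the highest DKO library, DKO 3. The means were 7.08 ± 1.03 (SD, n = 4) and 4.15 ± 0.495 (SD, n = 5) CPM, resting on 1465 and 1061 reads. The log2 fold change was -0.77 ± 0.15 (SE; interval -1.10 to -0.44; edgeR adjusted p = 0.0229). Over the 16 alternative analyses that do not block by replicate number, the fold change kept its direction, from -0.66 to -0.86. In 4 of the 16 the adjusted p of Trib3 rose above the threshold of 0.05, those without control 4 (0.0707), DKO 1 (0.0693), DKO 4 (0.0600) or DKO 5 (0.0562). It was 0.018 without control 1.

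Trib2, another Tribbles gene, moved the other way. It had 18.0, 26.5, 25.0 and 26.5 CPM in the controls and 44.3, 47.7, 48.7, 36.4 and 41.2 CPM in the DKO libraries. Every DKO library was above every control, and Trib2 rose by 0.86 ± 0.13 (SE) on the log2 scale (edgeR adjusted p = 0.00734). Trib2 is a pseudokinase known for steering protein degradation through the ubiquitin ligase COP1. Trib1 had 7.64 to 14.2 CPM in the controls and 10.1 to 16.2 CPM in the DKO libraries, with overlapping groups and a log2 fold change of 0.33 ± 0.20 (SE; edgeR adjusted p = 0.457). Trib2 was thus already the most abundant of the 3 Tribbles genes per kilobase in control cells, at 5.71 against 3.50 for Trib3 and 2.33 for Trib1. In DKO cells the same levels were 10.4, 2.05 and 2.93 CPM per kilobase.

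**Figure D3:**
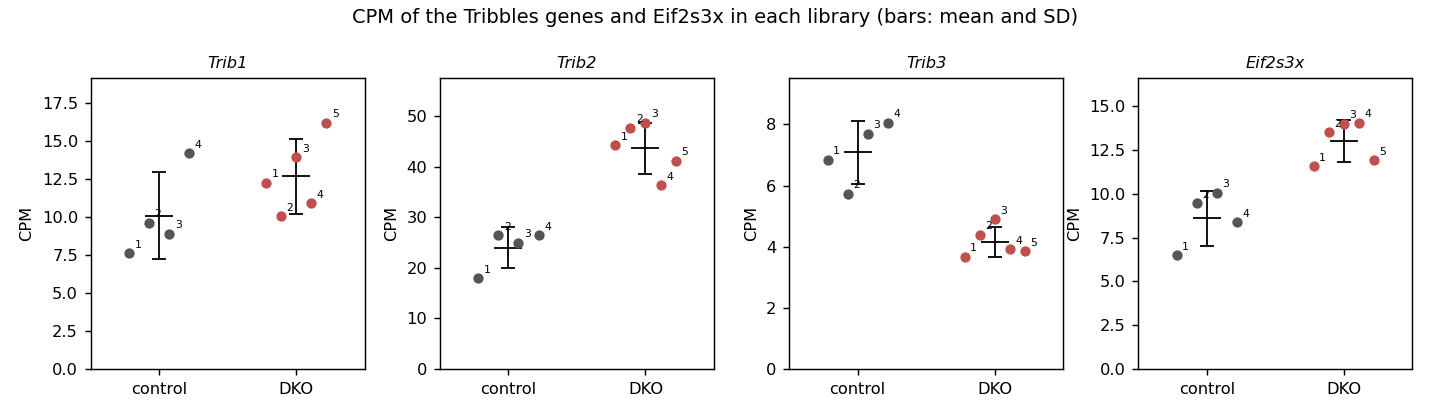
CPM of Trib1, Trib2, Trib3 and Eif2s3x in each library, control (grey, n = 4) and DKO (red, n = 5), with bars for the mean and SD. Trib2 and Eif2s3x are higher, and Trib3 lower, in every DKO library than in every control; Trib1 overlaps.

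The promoters of the members were read because ATF4 acts through a short DNA element, the C/EBP-ATF response element. RefSeq entries of GRCm38.p6, 250 bases before to 50 after the start, were matched for all 10 members. The element, TGATGNAAN on either strand, was found in 3 of the 10, Trib3, Asns and Chac1, and in 3.95% of all 32851 promoters of that length. The windows below are those matches, in capitals within 30 bases, written along the gene's strand.
Trib3, chr2:152344028-152344057, minus strand: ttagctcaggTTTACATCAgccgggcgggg
Asns, chr6:7693213-7693242, minus strand: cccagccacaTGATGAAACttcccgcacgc
Chac1, chr2:119351038-119351067, plus strand: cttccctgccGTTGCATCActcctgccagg
The Asns match, at -23 to -15 from the RefSeq start, is the letters known as the nutrient-sensing response element. The Chac1 match lies at -194 to -186 and the Trib3 match at 14 to 22 past the RefSeq start. By the GENCODE gene bounds printed here, the Trib3 match instead lies before the start and the Asns match inside the gene. The strict form TGATGCAA, which overlaps the Chac1 match, was in Chac1 alone among the members and in 0.895% of promoters. Of these 3 genes with the element, Trib3 fell, Asns did not pass the test and Chac1 had too few reads for one.

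The 9-base word TGGTGCAAT was picked after the members' promoters had been read. It lies before the start in Trib3 (-33 to -25) and Psat1 (-136 to -128), as it does in 25 of all promoters (0.0761%), and the windows are shown because the 2 genes had log2 fold changes of opposite sign. The word is in capitals. The Psat1 entry starts inside the longer gene model that GENCODE gives.
Trib3, chr2:152344074-152344103, minus strand: gggtcacagaTGGTGCAATcccgggccgct
Psat1, chr19:15925176-15925205, minus strand: cgcgggtggcTGGTGCAATcccctgctctc
Ppp1r15a alone held a cAMP response element, TGACGTCA on both strands because it reads the same on each, at -12 to -5. That word, in capitals, was in 1.79% of promoters.
Ppp1r15a, chr7:45526262-45526291, minus strand: cgcctctccggTGACGTCAgcacagcgccg
The ER stress element (ERSE, 0.119% of promoters) and the unfolded protein response element TGACGTGG (0.676%), searched on both strands, were in none of the members' entries.

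None of the 3 enzymes passed the test. Asns (chr6:7675169-7693254, minus strand), which makes asparagine, had 13.0, 13.2, 7.90 and 12.3 CPM in the controls and 6.98, 6.08, 7.84, 10.2 and 14.7 CPM in the DKO libraries. Control 3 sat with the low DKO libraries, and DKO 5 was the highest of all 9. Asns had a log2 fold change of -0.35 ± 0.25 (SE; edgeR adjusted p = 0.547), and its interval, -0.90 to 0.20, was the widest among the members. Without DKO 5 the value was -0.58 and without DKO 2 it was -0.23.

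Phgdh (chr3:98313170-98339990, minus strand), the first enzyme of serine synthesis from glucose, had 48.5, 42.1, 46.2 and 45.2 CPM in the controls and 49.1, 50.9, 53.6, 49.7 and 53.0 CPM in the DKO libraries. The groups did not overlap, although control 1 and DKO 1 were close. The log2 fold change of Phgdh was 0.17 ± 0.08 (SE; interval 0.004 to 0.34), and it missed the threshold after adjustment over all genes (edgeR adjusted p = 0.301).

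Psat1 (chr19:15904678-15947337, minus strand), the next enzyme of that route, had 20.2, 27.0, 22.5 and 23.8 CPM in the controls and 27.5, 24.7, 27.6, 30.1 and 36.7 CPM in the DKO libraries. Control 2 reached into the DKO range, and DKO 5 was the highest library. The log2 fold change of Psat1 was 0.32 ± 0.13 (SE; interval 0.04 to 0.61; edgeR adjusted p = 0.246). Psph, which completes serine synthesis, had 46.8 to 58.7 CPM in the controls and 53.1 to 62.7 CPM in the DKO libraries, and its log2 fold change was 0.15 ± 0.09 (SE; edgeR adjusted p = 0.443). DKO 5 was the highest DKO library for 4 of the 9 tested members (Asns, Psat1, Xbp1 and Ppp1r15a) and had the highest cell cycle marker sum, 1500 CPM against 790 to 1005 CPM in the other DKO libraries. The part of cell cycle in these values was not tested.

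Sesn2 (chr4:132492032-132510501, minus strand) encodes a leucine sensor that restrains mTORC1. It had 14.1, 22.6, 28.5 and 27.4 CPM in the controls and 28.7, 30.6, 26.4, 20.1 and 30.01 CPM in the DKO libraries. Control 1 was the lowest of all and the other 3 controls overlapped with the DKO libraries. Sesn2 had a log2 fold change of 0.23 ± 0.20 (SE; interval -0.20 to 0.66; edgeR adjusted p = 0.616) with all libraries, 0.04 without control 1 and 0.35 without control 3. The related Sesn1 and Sesn3 had log2 fold changes of -0.13 and 0.12, and neither passed the test.

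Ppp1r15a (chr7:45522916-45526268, minus strand) encodes GADD34, which brings a phosphatase to eIF2 and ends the response. It had 35.5, 36.9, 33.2 and 43.5 CPM in the controls and 36.0, 31.8, 33.4, 29.1 and 40.1 CPM in the DKO libraries. The ranges overlapped, with control 4 highest and DKO 4 lowest, and the log2 fold change of Ppp1r15a was -0.13 ± 0.11 (SE; interval -0.38 to 0.12; edgeR adjusted p = 0.634). It was -0.045 without control 4, -0.078 without DKO 4 and -0.20 without DKO 5. Ppp1r15b, its constitutive counterpart, was 114% of control (log2 fold change 0.19 ± 0.19, SE; edgeR adjusted p = 0.682), with control 1 at 60.4 CPM and the other 8 libraries at 115 to 134 CPM.

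Chac1 (chr2:119351229-119354381, plus strand), which degrades glutathione and is a sensitive target of ATF4 and CHOP, was barely detected. Its 9 control reads all lay in control 1, at 0.186 CPM, and the DKO libraries had 0, 0, 3, 1 and 5 reads. A library of the other 3 controls at 0 reads allows up to 3 reads at this depth, and a difference between the groups was not detectable.

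**Figure D4:**
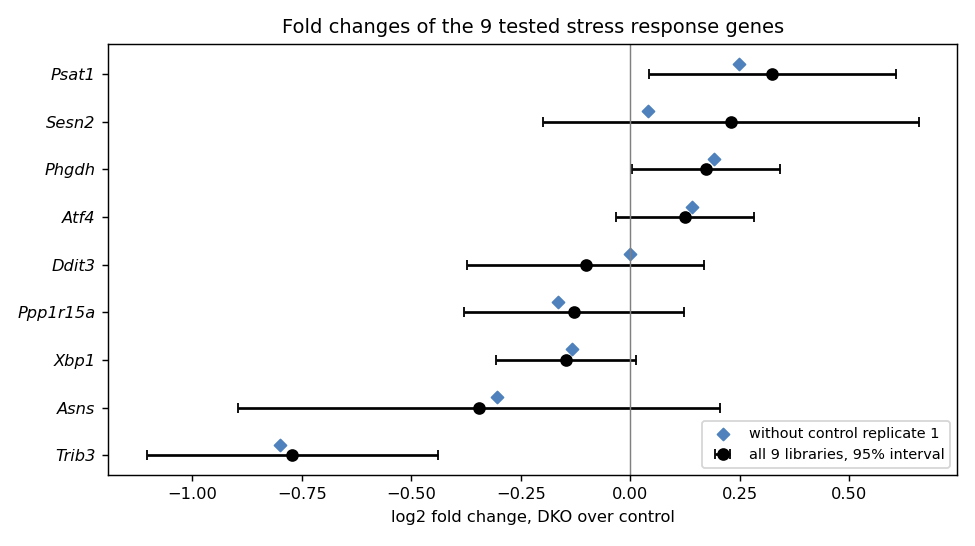
Log2 fold change of the 9 tested genes, DKO over control, with all 9 libraries (black, bars are the 95% interval) and without control 1 (blue diamonds). The Trib3 interval, -1.10 to -0.44, lies wholly below 0, and Sesn2 and Ddit3 shift to near 0 without control 1.

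Over the members, 1 of 9 passed the adjusted threshold (11.1%), against a background of 2.83% of the 14918 genes tested and 1.51% for genes lower in DKO cells. With 1 gene the share does not separate the members from other genes. Unadjusted p-values fell below 0.05 for 3 of 9, against 16% of all genes, and the groups did not overlap for 2 of 9, against 8.71%. Of the 9, 4 had positive and 5 negative log2 fold changes. Their median was -0.10, beside -0.01 over all genes tested. Without control 1 the count was again 1 of 9, Trib3, against 4.93% of genes. In sorted bulk cells, less RNA per cell and fewer cells that express a gene cannot be told apart.

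The remaining pathway genes were read from 12 lists that hold 149 genes, of which 138 were tested. Of these, 2 passed (1.45%, background 2.83%), both higher in DKO cells (background 1.32%): Trib2 and Eif2s3x. The median log2 fold change of the 138 genes was 0.02. Among the 16 genes of eIF2, its kinases, its exchange factor eIF2B and their regulators, all tested, Eif2s3x was the 1 that passed. Eif2s1, the α subunit of eIF2, was at 75.6% of control, with no overlap between the groups. Its log2 fold change was -0.40 ± 0.10 (SE; edgeR adjusted p = 0.057). Eif2s1 passed in some alternatives, among them those without control 1 or control 3. Eif2s2, the β subunit, had a log2 fold change of -0.30 ± 0.12 (SE; edgeR adjusted p = 0.268). Eif2s3x (chromosome X), the γ subunit of eIF2, had 6.48, 9.44, 10.1 and 8.39 CPM in the controls and 11.6, 13.5, 14.0, 14.1 and 11.9 CPM in the DKO libraries. Every DKO library was above every control, and its log2 fold change of 0.60 ± 0.14 (SE) was just past the threshold (edgeR adjusted p = 0.0497). It was no longer past it in 9 of the 16 alternatives without a block, among them those without control 2 (0.0732), control 4 (0.122), DKO 1 (0.0881), DKO 2 (0.103), DKO 3 (0.129), DKO 4 (0.113) or DKO 5 (0.083).

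Eif2s3x is known to escape X inactivation. Xist, the RNA that silences an X chromosome, had 0.132 ± 0.155 (SD, n = 4) CPM in the controls and 14.9 ± 4.92 (SD, n = 5) CPM in the DKO libraries (edgeR adjusted p = 8.06e-05), and Eif2s3y on chromosome Y was at 0 in all. Whether Xist and Eif2s3x are linked here was not tested. Xist was at most 0.351 CPM in any control and 11.4 to 23.6 CPM in the DKO libraries. The library titles do not give the sex of the donors. A group difference that goes with Xist, such as donor sex, cannot be told apart from DKO in any result, Trib3 and Trib2 included.

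The 4 eIF2 kinases did not pass. Eif2ak1, which senses haem, was 99.9% of control, Eif2ak3, the ER kinase PERK, 113%, and Eif2ak4, the amino acid sensor GCN2, 103%. Eif2ak2, the double-stranded RNA sensor PKR, had the lowest log2 fold change of its list, -0.51 ± 0.21 (SE; edgeR adjusted p = 0.266). It had 12.1, 18.6, 24.8 and 16.5 CPM in the controls and 12.9, 16.6, 11.5, 13.2 and 9.0 CPM in the DKO libraries, which overlapped.

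Of the 7 bZIP partners, 5 were tested and none passed. Jdp2, a repressor of the AP-1 and ATF family, was the lowest (-0.53 ± 0.16, SE; edgeR adjusted p = 0.116), and Atf5, another factor translated under stress, the highest (0.34 ± 0.24, SE). The Atf5 count is low and uncertain, with means of 0.898 and 1.14 CPM and strand columns that summed to 5.53 of the unstranded count. Atf3 had means of 0.244 and 0.133 CPM and Nupr1 of 0.156 and 0.135 CPM, in control and DKO cells. Of the 21 other ATF4 and CHOP targets, 15 were tested and none passed. Ddit4, an mTORC1 inhibitor, had the highest log2 fold change, with 13.8 to 22.4 CPM in the controls and 36.0, 36.2, 34.0, 9.33 and 27.7 CPM in the DKO libraries. DKO 4 lay below all controls and the other 4 DKO libraries above them, and the log2 fold change was 0.58 ± 0.32 (SE; edgeR adjusted p = 0.413), or 0.80 (adjusted p = 0.0384) without DKO 4. Slc1a5, a glutamine transporter, was the lowest (-0.21 ± 0.09, SE). Vldlr and Slc7a11 had 0 reads in all libraries.

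**Figure D5:**
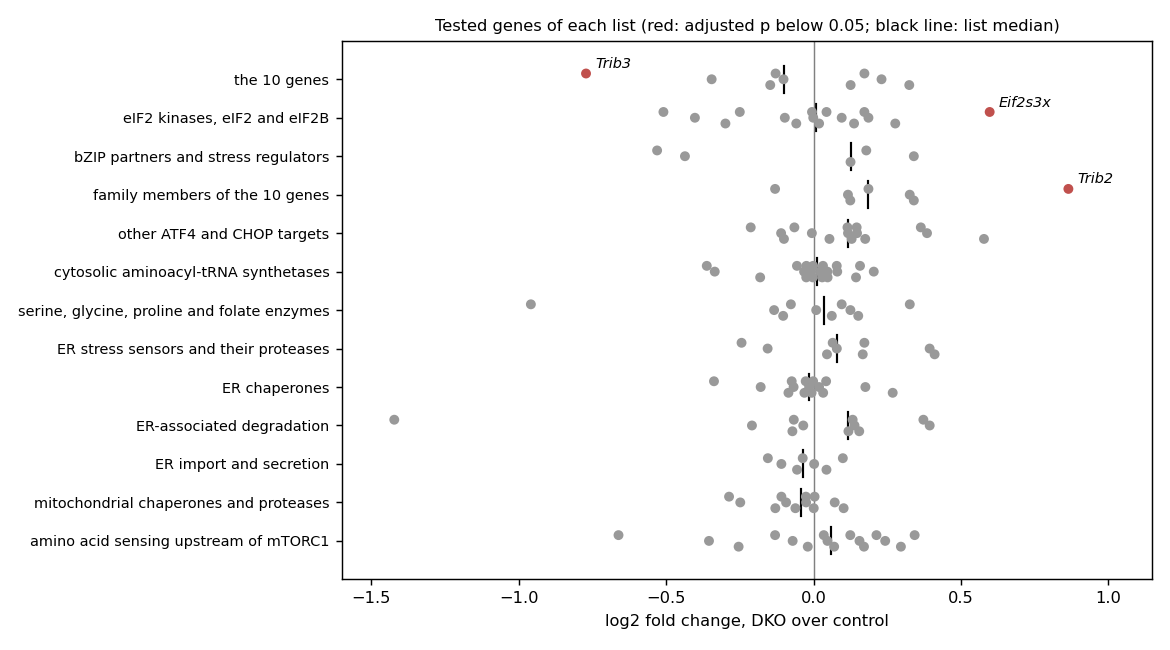
Log2 fold change (DKO over control) of each tested gene in the 12 pathway lists and the 10 genes, with a black line at each list's median and genes past adjusted p 0.05 in red. The 3 red genes are Trib3, Eif2s3x and Trib2, and list medians lie between -0.10 and 0.19.

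The 20 cytosolic aminoacyl-tRNA synthetases, many of them ATF4 targets, divided into 10 higher and 10 lower values with a median of 0.01, and none passed. Farsb was the lowest (-0.36 ± 0.09, SE; edgeR adjusted p = 0.0663), with no overlap between the groups. Iars was the highest (0.20 ± 0.19, SE), where control 1 had 56.0 CPM and all other libraries 108 to 137 CPM. Of 10 tested serine, glycine, proline and folate enzymes, none passed, and the ends of the range were genes of low counts, Pycr1 (-0.96; means of 0.241 and 0.122 CPM) and Gpt2 (0.33; means of 0.503 and 0.641 CPM).

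The ER arm gave no call among 9 sensors and proteases, 15 chaperones, 11 degradation genes and 7 genes of import and secretion, all tested. Hspa5 (BiP), the chaperone that holds the ER sensors inactive, stood at 99.5% of the control level (log2 fold change -0.01, interval -0.17 to 0.15). The lowest and highest values of the sensors were Creb3 (-0.24) and Creb3l2 (0.41), those of the chaperones Canx (-0.34) and Hyou1 (0.27), and those of import and secretion Sec61b (-0.16) and Sec61a1 (0.10). In ER-associated degradation, Derl3 was the lowest (-1.42 ± 0.44, SE; means of 0.357 and 0.132 CPM; edgeR adjusted p = 0.122) and Syvn1, a ubiquitin ligase, was the highest (0.39 ± 0.12, SE; edgeR adjusted p = 0.115). The lists of mitochondrial proteostasis (12 genes, from Oma1 at -0.29 to Dnaja3 at 0.10) and of amino acid sensing (16 tested, from Castor2 at -0.66 to Rraga at 0.34) gave no call either.

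Trib2 and Eif2s3x passed with and without control 1, but several results that did not pass depended on control 1. Without it, 11 pathway genes passed, 3 higher (Eif2s3x, Trib2 and Syvn1; background 2.12%) and 8 lower (Eif2s1, Jdp2, Xpot, Farsb, Hars, Canx, Pdia4 and Castor2; background 2.81%), and Iars and Sec61a1 changed sign, to -0.01 and -0.02. Several of the highest values in their lists also shrank without control 1, Creb3l2 to 0.14, Hyou1 to 0.02, Gpt2 to 0.06, Dnaja3 to 0.06, Rraga to 0.22 and Syvn1 to 0.26, and Sec61b went to -0.03. Eif2s1, Eif2s2, Xpot, Hars and Pdia4, and the kinases, Trib1, Psph, Ppp1r15b, Hspa5, Sesn3, Atf3, Nupr1, Vldlr, Slc7a11, Xist and Eif2s3y, were chosen after their values were seen.

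Marker sums differed between the groups for 3 of 8 lists. The summed CPM of 20 cell cycle markers was 536 to 675 in the controls and 790 to 1500 in the DKO libraries. That of 15 immediate early and handling genes was 1355 to 1602 and 1652 to 1958 (exact permutation test, two-sided, p = 0.0159 for each, the smallest 9 libraries allow, adjusted p = 0.0423 over 8 lists). Of the 15, Btg2 rose by the most CPM (means of 526 and 710 CPM; edgeR adjusted p = 0.0312). Jun (10.1 and 8.41 CPM) and Ier3 (41.0 and 36.6 CPM) were lower in the DKO libraries without passing, and the rest were higher. The sum of 12 myeloid markers was 137 to 166 in the controls and 100 to 111 in the DKO libraries (the same exact permutation test, p = 0.0159, adjusted p = 0.0423), and 7 of the 12 exceeded 1 CPM in some library. Ctss (means of 81.2 and 51.3 CPM; edgeR adjusted p = 0.00734) and Itgam (58.9 and 38.1 CPM; adjusted p = 0.148) made up most of that sum. The Itgam count is uncertain, because 68.7% of its exon bases are shared with Gm49368. Lyz2 had means of 2.43 and 5.85 CPM, higher in the DKO libraries (edgeR adjusted p = 0.206). Csf1r (1.84 and 2.37 CPM) and Mpeg1 (0.154 and 0.351 CPM) were higher there too without passing, so the members of the list did not share 1 direction. The Csf1r count is also uncertain, because its strand columns summed to 5.54 of its unstranded count. B cell (200 to 279 and 217 to 226), plasma cell (5.94 to 7.32 and 5.62 to 8.76), CD4 T cell (30.7 to 39.3 and 34.6 to 46.6), and erythroid and platelet (6.88 to 36.1 and 10.3 to 35.7) sums overlapped, as did those of CD8 T cells (8637 to 11237 and 7902 to 8948). Ighm (means of 209 and 188 CPM) made up most of the B cell sum. Cd74 (5.87 and 10.5 CPM), H2-Ab1 (1.99 and 4.22 CPM) and Cd22 (4.89 and 7.39 CPM) were higher in the DKO libraries without passing. Cd79a (0.910 and 0.857 CPM) did not pass either and was lower there. Pax5, a defining B cell gene, was at 0 in all libraries, and the plasma cell genes Mzb1 and Tnfrsf17 reached at most 0.0175 and 0.0847 CPM. Other plasma cell genes were detected and did not share 1 direction. Sdc1 was at 0 in the controls and rose to a mean of 0.204 CPM in the DKO libraries (edgeR adjusted p = 0.0357). Jchain had means of 0.492 CPM in the controls and 0.832 CPM in the DKO libraries, without passing. Igkc (means of 5.01 and 4.06 CPM) and Derl3 (0.357 and 0.132 CPM) were lower in the DKO libraries without passing. Their part in the Xbp1 values was not tested. These single markers were chosen after their values were seen. The part of the cell cycle, handling and myeloid genes in the Trib3 and Trib2 results was not tested.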

How the data were processed

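PolyA RNA of 9 libraries was sequenced after SMART-Seq v4 amplification and Nextera Flex tagging, which keep no strand, per the labels' protocols. The submitters' processing notes name Trim Galore 0.6.0, STAR 2.7.8a and mm10. The deposited files hold raw counts per gene, made by the authors: an unstranded column (used here) and 2 strand columns (summed as an alternative). Rows for unmapped, multimapping, ambiguous and featureless reads stayed out of totals; 67.0% to 74.0% of reads were in genes. Of 55471 identifiers, 55230 matched GENCODE M21, without the version number. Counts per gene were tested with edgeR 4.0.16 (filterByExpr, TMM, robust quasi-likelihood fit over 9 libraries) with Benjamini-Hochberg adjustment over 14918 genes at 0.05. On simulated data, edgeR recovered 63.0% of 200 genes changed by 1 on the log2 scale, and 7.35% of its calls were false. On the same data DESeq2 recovered 67.0% with 23.0% of calls false, and limma-voom 61.5% with 7.52% false. Intervals are 95% t intervals from the fit. Marker sums used exact permutation tests.

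The members and lists were chosen with earlier results of these data known. Named by rule were the 10 members, Oxct1, Bdh1, called list genes and each list's lowest and highest tested gene. Alternatives were DESeq2 1.42.0 (test, and size factors), limma-voom 3.58.1, other filters, strand sums, 1 surrogate variable (sva 3.50.0), the replicate number as a block and leaving out each library. Same-number libraries correlated between -0.117 and 0.012. These few correlations show no pairing by number but cannot exclude it. No 2 libraries agreed within sampling noise. Promoters are RefSeq entries of GRCm38.p6.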

Additional observations from a re-analysis of the deposited data

Results flagged for a closer look

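Over 88 groups of CPM values from the members and named genes, 2 held a library far from the rest, and chance alone gives about 1 in 20. Chac1 in control 1 was at 0.186 CPM while the other 3 control libraries were at 0. Sec61a1, a subunit of the ER import channel, was at 195 CPM in control 1 while the other 3 controls were at 266 to 271 CPM. Both flags fell on the library whose values moved with transcript length, and its part in either was not tested.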

How the results depend on the processing

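Of 590 pairs of a named gene and an alternative, 545 kept direction and side of the threshold, 16 lost the call, 25 gained one and 4 changed sign: Ddit3 (0.000297), Iars (-0.013) and Sec61a1 (-0.016) without control 1, and Gpt2 (-0.075) without control 3. Leaving out each library gave these 4 log2 fold changes of -0.182 to 0.000297, -0.013 to 0.371, -0.016 to 0.140 and -0.075 to 1.25. The 422 genes became 1038 with DESeq2, 996 with limma-voom, 1231 with 1 surrogate variable and 179 to 749 when a library was left out. The members' count was 1 in each alternative except the block and the omission of control 4, DKO 1, DKO 4 or DKO 5, where it was 0 (range 0 to 1). The pathway genes, counted in this way after seeing the data, were 1 with DESeq2 size factors (0.725%, against 2.78% of all genes) or no filter (0.680%, against 1.28%). They were 9 with DESeq2 (6.52% of those tested, against 6.96% of all genes) and 12 with limma-voom (8.70%, against 6.68%). The stricter filter gave 5 (3.73%, against 4.04%) and the surrogate variable 13 (9.42%, against 8.25%). Leaving out a library gave 1 to 11 (0.719% to 7.97%, against 1.22% to 4.93%). The cause of these shifts was not tested. With the replicate number as a block, 67 genes, 0 members and 0 pathway genes passed (Trib3 adjusted p = 0.168, Trib2 0.0579, Eif2s3x 0.126). No library correlated best with its own number. Leaving out a library put the log2 ratio of marker sums at -0.588 to -0.497 (myeloid), 0.621 to 0.873 (cell cycle), 0.235 to 0.319 (handling), -0.264 to -0.134 (CD8), 0.183 to 0.304 (CD4), -0.122 to 0.047 (B cell), -0.135 to 0.042 (plasma cell) and -0.224 to 0.495 (erythroid and platelet), with adjusted p from 0.0571 for the first 3, since fewer libraries cannot give a smaller p. Before the RefSeq start alone, 2 members held the ATF4 element. Low counts limit Chac1.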
